A study of Mus musculus with 9 samples.

Results

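The BCL2 family decides whether a cell releases the contents of its mitochondria and dies, and 10 of its genes were followed here through the first 48 h of spermatogonial stem cell (SSC) differentiation: Bcl2, Bcl2l1, Mcl1, Bax, Bak1, Bcl2l11, Bid, Bad, Bbc3 and Pmaip1. They were taken by gene symbol from the 46078 genes in the count data. The clearest change was in Pmaip1, which encodes NOXA and fell 6.60-fold within 24 h. Bak1, one of the pore-forming members, and Bad, a BH3-only member, rose over the same time from low levels. Mcl1, whose product NOXA binds, was lower at 48 h than at 0 h by a smaller amount. No member passed the test between 24 h and 48 h.

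Poly-A RNA was sequenced from EGFP-SSCs, a mouse SSC line that carries green fluorescent protein, in 3 biological replicates at each of 3 times. At 0 h the cells came from the self-renewing culture, where they grew on mitomycin C-treated mouse embryonic fibroblasts with GDNF, basic FGF and EGF. At 24 h and 48 h they had been cultured with an equal number of testicular somatic cells in α-MEM containing KSR, activin A, BMP-4/7, FSH, testosterone, retinoic acid and pituitary extract, and the EGFP-positive cells were sorted out by flow cytometry. The study speaks of flow sorting at the stages of culture in general, while the labels name the sort for 24 h and 48 h, so how far the 0 h cells were freed of feeder fibroblasts is not clear. The somatic cells came from busulfan-treated mice aged 3 to 7 days, whose testes are depleted of germ cells. The data rest on 1 cell line, and nothing in the labels says how separate the 3 cultures of a time were, so the p-values measure the spread between these samples. Time also cannot be told apart from the change of medium and of neighbouring cells.

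BCL2 family proteins fall into 3 classes. Prosurvival members (BCL2, BCL-XL from Bcl2l1, MCL1) hold the effectors BAX and BAK in check at the outer mitochondrial membrane. BH3-only proteins (BIM from Bcl2l11, BID, BAD, PUMA from Bbc3, NOXA from Pmaip1) sense stress and either bind the prosurvival members or activate the effectors, which then form pores, release cytochrome c and start the caspases. In the testis, BAX is needed for the early wave of germ cell death that sets germ cell number, and BCL-XL protects germ cells from it. Much of the control of these proteins is by phosphorylation and turnover, which RNA does not show.

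Library totals ran from 16825251 to 22201892 counts. The 3 libraries of 0 h differed more from each other than those of 24 h or 48 h, where chi-square divided by its degrees of freedom was 39.4 to 90.9 between pairs, against 7.78 to 28.7 at the later times, and no pair agreed within sampling noise. The germ cell genes Dazl and Ddx4, both for RNA-binding proteins, also differed between the 0 h libraries. Dazl was at 1332, 828 and 426 CPM (counts scaled to a common library size, with TMM) in 0 h replicates 1, 2 and 3. Ddx4 was at 455, 396 and 215 CPM. Other germ cell genes ran the other way, with Tex101 at 165, 196 and 225 CPM and Lin28a at 153, 195 and 197 CPM. Several lists of genes of other testicular cells were higher in sum after co-culture. The summed level of 10 fibroblast and stromal genes was 816 to 976 CPM at 0 h, 2934 to 3350 CPM at 24 h and 3974 to 4224 CPM at 48 h. Col1a1, the highest of them at 24 h and 48 h, was at 157, 1119 and 1394 CPM on average. Against 0 h, 6 of the 10 were called higher at 24 h and 7 at 48 h. Thy1 was called lower at both times, at 47.7, 16.9 and 23.8 CPM on average. The summed level of 6 peritubular myoid genes was 13.7 to 15.8, 149 to 207 and 267 to 318 CPM. For 12 Sertoli cell genes the sums were 155 to 180, 225 to 299 and 318 to 323 CPM, and for 7 Leydig cell genes 4.63 to 6.97, 29.4 to 44.7 and 29.6 to 36.5 CPM. Most of the Sertoli sum came from Ctsl, at 142.9, 149.4 and 189.5 CPM on average. Of 11 Sertoli genes tested at 24 h against 0 h, 8 were called higher. The 2 called lower were Sox9 and Rhox5 (log2 fold changes -0.80 and -2.57). At 48 h against 0 h, 9 were called higher and 1 (Rhox5) lower. The sum of 6 endothelial genes fell, from 97.4 to 122 CPM at 0 h to 57.4 to 65.9 and 37.9 to 44.2 CPM. Of these genes, 3 were called lower and 1 (Tek) higher at 24 h. The sum of 8 macrophage genes went from 16.4 to 18.8 CPM at 0 h to 7.47 to 12.6 and 8.40 to 10.01 CPM. It was carried by Cd68, at 15.6, 5.82 and 5.42 CPM on average. Csf1r and Cd14, both low, were called higher at 24 h, and Cd14 also at 48 h. Fshr and Lhcgr, the gonadotropin receptors that define Sertoli and Leydig cells, were at 3 counts or fewer in every library. The 12 germ cell genes summed to 2091 to 2991 CPM at 0 h, 3671 to 3816 CPM at 24 h and 2846 to 3033 CPM at 48 h. This sum was carried by Stra8 and Kit, genes of differentiating spermatogonia, which went from means of 2.57 and 8.45 CPM at 0 h to 918 and 571 CPM at 24 h and 482 and 328 CPM at 48 h. The other 10 germ cell genes summed to 2978, 2590 and 2080 CPM in the 0 h replicates, to 2178 to 2340 CPM at 24 h and to 2073 to 2199 CPM at 48 h, with 0 h replicates 1 and 2 above every later library. The part of these other cells in the changes of BCL2 family genes below was not tested.

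RefSeq (GRCm38.p6) promoter windows, from 250 bases before a start site to 50 after it, were held for 9 of the 10 genes, with 15 windows in all. No window was held for Pmaip1. The 250 bases before the start are shown for Bak1, Bad and Mcl1, the other members that changed, and for Bax, the only member with a match to a p53 half-site. They are written 5′ to 3′ on the strand of the gene. They lie at chr17:27028628-27028877 (minus strand), chr19:6941611-6941860 (plus), chr3:95658471-95658720 (plus) and chr7:45466899-45467148 (minus), in that order. Capitals mark matches, on either strand, to the motifs searched.
Bak1: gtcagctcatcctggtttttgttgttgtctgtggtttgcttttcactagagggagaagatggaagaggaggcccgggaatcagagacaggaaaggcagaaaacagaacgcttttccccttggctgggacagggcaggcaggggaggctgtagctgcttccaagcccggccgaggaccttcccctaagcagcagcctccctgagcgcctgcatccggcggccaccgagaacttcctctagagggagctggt
Bad: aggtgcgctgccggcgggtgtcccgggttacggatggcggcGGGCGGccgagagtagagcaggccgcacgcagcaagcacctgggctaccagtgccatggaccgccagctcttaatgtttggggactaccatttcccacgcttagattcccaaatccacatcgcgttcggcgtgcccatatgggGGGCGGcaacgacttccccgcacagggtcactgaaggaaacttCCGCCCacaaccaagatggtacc
Mcl1: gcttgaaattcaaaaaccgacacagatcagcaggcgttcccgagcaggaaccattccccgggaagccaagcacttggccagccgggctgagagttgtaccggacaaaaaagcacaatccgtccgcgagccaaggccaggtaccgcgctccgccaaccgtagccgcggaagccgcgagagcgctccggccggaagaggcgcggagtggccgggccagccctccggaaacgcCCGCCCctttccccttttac
Bax: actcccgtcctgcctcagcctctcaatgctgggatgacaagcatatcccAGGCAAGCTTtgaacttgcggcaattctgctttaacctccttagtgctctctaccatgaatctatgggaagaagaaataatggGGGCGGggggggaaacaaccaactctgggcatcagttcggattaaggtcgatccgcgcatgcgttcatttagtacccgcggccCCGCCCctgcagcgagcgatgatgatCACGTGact
In the full window, Bad held 4 GC boxes (GGGCGG or its complement). The Mcl1 window held 1 GC box and, just after the start, 1 match to TGACG, the core of the site of CREB and ATF factors. Bax held 3 GC boxes, 2 E-boxes (CACGTG, a site of MYC and other helix-loop-helix factors) and 1 p53 half-site whose first base lies 201 bases before the start, while Bak1 held none of the motifs. A GC box stood in 10 of the 15 member windows and in 35.7% of the 32851 windows of all genes. The p53 half-site, searched as a degenerate motif of 10 bases, stood in 1 of the 15 against 8.36%, and the FOXO site TGTTTAC in 2 (Bbc3 and Bcl2l11) against 3.65%. CCAAT matched in 4 windows against 37.4%, CACGTG in 2 against 7.15%, TGACG in 3 against 20.8%, AGGTCA in 1 against 16.3% and TATAAA in 0 against 13.6%. These are matches of letters, and several windows of Bbc3, Bcl2l1, Bcl2l11 and Bad belong to the same gene.

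**Figure D1:**
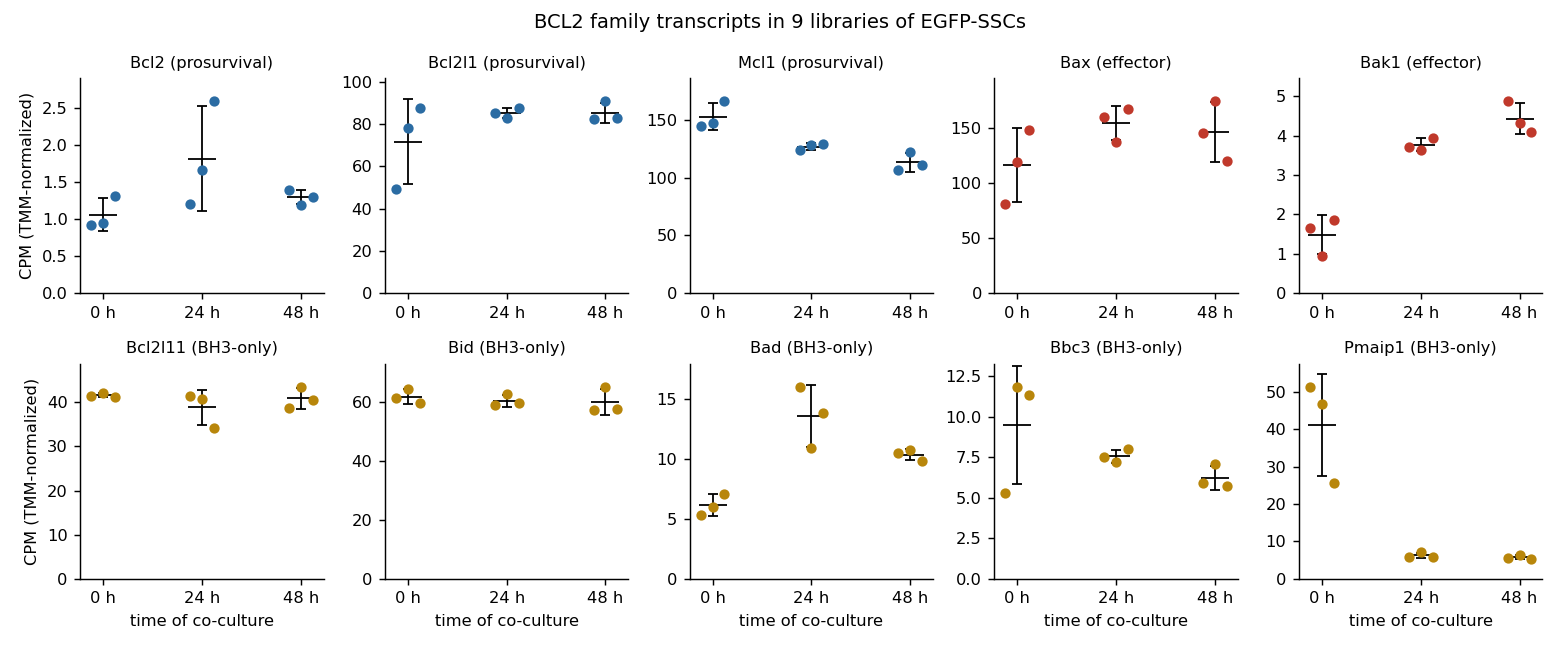
Expression of the 10 BCL2 family genes in CPM (vertical axis, from 0, a separate scale for each gene) at 0 h, 24 h and 48 h. Points are libraries, horizontal ticks the means and bars the SD of 3 libraries; Pmaip1 drops from 25.6 to 51.3 CPM at 0 h to between 5.40 and 7.04 CPM later, while Bid and Bcl2l11 stay level.

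Among the prosurvival genes, Mcl1 was the most abundant. Its protein is short-lived and blocks BAK and the BH3-only proteins BIM and NOXA. Mcl1 was at 145, 147 and 166 CPM at 0 h, at 124, 128 and 129 CPM at 24 h and at 107, 123 and 111 CPM at 48 h. Every library of 24 h and 48 h was below every library of 0 h, and the 48 h libraries were below those of 24 h. In bulk samples, fewer cells that express a gene and less of its RNA per cell cannot be told apart. The fall passed the test at 48 h against 0 h, with a log2 fold change of -0.42 ± 0.10 (SE, n = 3 per group) and an adjusted p of 0.0185 in the edgeR quasi-likelihood test (Benjamini-Hochberg, threshold 0.05). It was -0.27 ± 0.10 at 24 h (adjusted p = 0.0880, edgeR) and -0.16 ± 0.06 from 24 h to 48 h (adjusted p = 0.111, edgeR). The call at 48 h was lost in 4 of 14 alternatives, namely with library size in place of TMM (adjusted p = 0.0511, edgeR), with the replicate number as a block (0.0741), and without 48 h replicate 1 (0.104) or 48 h replicate 3 (0.0930).

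Bcl2l1, which gives the prosurvival protein BCL-XL, was at 49.1, 78.3 and 87.7 CPM at 0 h. It was at 85.0, 83.0 and 87.4 CPM at 24 h and at 82.2, 90.6 and 82.6 CPM at 48 h. The groups overlapped, and 0 h replicate 1 was the lowest library. Its log2 fold changes, 0.25 ± 0.20 at 24 h and 0.26 ± 0.20 at 48 h, did not pass the test (adjusted p = 0.407 and 0.375, edgeR), with 95% intervals of -0.21 to 0.71 and -0.21 to 0.72. With offsets for GC content and gene length in the fit, they were 0.35 (adjusted p = 0.0451, edgeR) and 0.55 (0.00608), and Bcl2l1 was called higher. From 24 h to 48 h the difference was 0.01, with an interval of -0.13 to 0.15, and with the offsets it was 0.20 and was called (adjusted p = 0.0277, edgeR). The other prosurvival gene, Bcl2, was close to absent, with 15 to 53 counts per library. Its mean was 1.06 ± 0.22 CPM at 0 h, 1.81 ± 0.70 CPM at 24 h and 1.29 ± 0.10 CPM at 48 h (SD, n = 3), the groups overlapped, and no comparison passed the test. At 24 h its log2 fold change against 0 h was 0.78 with an interval of -0.08 to 1.63, and its 24 h libraries ranged from 24 to 53 counts.

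The effectors differed from each other in level and in course. Bax was at 81.4, 120 and 149 CPM at 0 h, at 160, 138 and 167 CPM at 24 h and at 146, 175 and 120 CPM at 48 h. Here too 0 h replicate 1 was lowest and the groups overlapped. The log2 fold changes were 0.41 ± 0.20 at 24 h (adjusted p = 0.188, edgeR) and 0.34 ± 0.22 at 48 h (0.299), with intervals of -0.06 to 0.89 and -0.19 to 0.87. With offsets for GC content and gene length, Bax was called higher at both times, by 0.29 (adjusted p = 0.0322, edgeR) and 0.46 (0.00695), and at 24 h it was also called higher without 0 h replicate 3 (0.64, adjusted p = 0.0220). Exons of Bax share 192 bases with Gm45808 on the same strand, which was not analysed here.

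Bak1 was far lower, with 19 to 37 counts per library at 0 h and 68 to 98 counts later. It was at 1.66, 0.939 and 1.86 CPM at 0 h, at 3.72, 3.63 and 3.95 CPM at 24 h and at 4.87, 4.32 and 4.10 CPM at 48 h. Each later library was above each library of 0 h, and the 48 h libraries were above those of 24 h. Bak1 rose by a log2 fold change of 1.34 ± 0.30 at 24 h (2.53-fold, adjusted p = 0.0148, edgeR) and 1.58 ± 0.29 at 48 h (2.99-fold, adjusted p = 0.00617). Its increase from 24 h to 48 h did not pass the test (0.24 ± 0.17, adjusted p = 0.329, edgeR). The call at 24 h was lost without any 1 of the 24 h replicates, at adjusted p of 0.0540 to 0.0610 (edgeR), and the call at 48 h was kept in all 14 alternatives. The stromal and myoid sums given above rose at the same times as Bak1, and their part in its rise was not tested. In GENCODE M21, exons of Bak1 (2407 bases, chr17:27019810-27029009, minus strand) overlap 2 entries of Ggnbp1 on the opposite strand. The overlaps add up to 614 bases, in which bases under both entries would count more than once. Whether reads were counted by strand is not given in the sources used here. Ggnbp1 was at 7.78, 6.57 and 7.80 CPM on average at 0 h, 24 h and 48 h, with log2 fold changes of -0.24 and 0.01 against 0 h that did not pass the test (adjusted p = 0.362 and 0.981, edgeR).

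Of the 5 BH3-only genes, Pmaip1 fell, Bad rose and the other 3 did not pass the test at either time. Pmaip1 encodes NOXA, which binds MCL1 and promotes its breakdown, and it is a target of p53 and of stress-induced transcription. It was at 51.3, 46.7 and 25.6 CPM at 0 h, at 5.88, 7.04 and 5.85 CPM at 24 h and at 5.69, 6.44 and 5.40 CPM at 48 h. The lowest 0 h library, replicate 3, was still above every later library, and the later groups overlapped each other. The log2 fold change was -2.72 ± 0.28 at 24 h (6.60-fold lower, adjusted p = 0.000515, edgeR) and -2.82 ± 0.28 at 48 h (7.04-fold lower, adjusted p = 0.000369). From 24 h to 48 h it was -0.09 with an interval of -0.43 to 0.25 (adjusted p = 0.706, edgeR). Both calls against 0 h were kept in all 14 alternatives, with log2 fold changes of -2.95 to -2.52 and -3.04 to -2.61. Within 0 h, Pmaip1 had the same order over the 3 libraries as Dazl and Ddx4. The order was not limited to the germ cell list. Huwe1 was at 1288, 1085 and 572 CPM and Mdm4 at 279, 238 and 119 CPM in 0 h replicates 1, 2 and 3. Other genes, such as Bax and Cdkn1a, had the reverse order. With offsets for GC content and gene length, the SE of the Pmaip1 change at 24 h was 0.16 in place of 0.28. The cause of these orders was not tested. The sum of the 10 germ cell genes other than Stra8 and Kit had the order of Pmaip1 too. Of its 2978 CPM in 0 h replicate 1, Dazl gave 1332. Tex101, Zbtb16, Sall4 and Lin28a of the same list were instead lowest in replicate 1. The sum of the 10 genes, like Pmaip1, had its highest libraries at 0 h. In 0 h replicate 3, though, it was 2080 CPM, below the 24 h libraries at 2178 to 2340 CPM. The part of this sum in the fall of Pmaip1 was not tested.

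Bad, which is held inactive by AKT and PIM kinases, was at 5.29, 5.98 and 7.10 CPM at 0 h. It was at 15.98, 10.9 and 13.8 CPM at 24 h and at 10.5, 10.7 and 9.86 CPM at 48 h. The 0 h libraries were lowest, the 24 h libraries highest, and no group overlapped another. Bad rose by 1.15 ± 0.20 at 24 h on the log2 scale (2.22-fold, adjusted p = 0.00490, edgeR) and by 0.76 ± 0.16 at 48 h (1.70-fold, adjusted p = 0.0109). The later decline of -0.38 ± 0.14 did not pass the test (adjusted p = 0.0783, edgeR), but it did without 24 h replicate 2, the lowest library of its group (-0.51, adjusted p = 0.0262), and with no expression filter (-0.39, adjusted p = 0.0446). The call at 48 h against 0 h was lost without 48 h replicate 1 (adjusted p = 0.0526, edgeR). Exons of Bad share 524 bases with Gpr137 on the opposite strand, which was at 14.2, 20.1 and 13.3 CPM on average and did not pass the test at 24 h or 48 h (adjusted p = 0.257 and 0.862, edgeR).

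Bbc3, the gene of the p53 target PUMA, was at 5.29, 11.8 and 11.3 CPM at 0 h. It was at 7.49, 7.20 and 7.99 CPM at 24 h and at 5.89, 7.06 and 5.70 CPM at 48 h. Replicate 1 of 0 h was the lowest of the 9 libraries and made the groups overlap. The log2 fold changes of -0.32 ± 0.29 and -0.60 ± 0.30 did not pass the test (adjusted p = 0.475 and 0.174, edgeR). Without that library they were -0.60 (adjusted p = 0.0211, edgeR) and -0.88 (0.00651), and Bbc3 was called lower at both times.

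Bid and Bcl2l11 were the steadiest members. Bid, whose protein links death receptors to mitochondria once caspase-8 has cut it, lay between 57.0 and 64.9 CPM in all 9 libraries. Its log2 fold change against 0 h was -0.03 at 24 h with an interval of -0.27 to 0.20, and -0.04 at 48 h with an interval of -0.29 to 0.21. Bcl2l11, which gives the FOXO target BIM, lay between 34.3 and 43.5 CPM. Its log2 fold changes were -0.10 (interval -0.38 to 0.18) and -0.02 (-0.26 to 0.21). None of these 4 intervals reached past -0.38 or 0.21, and the sign of the small differences turned under several alternatives. Of the exonic bases of Bid, 628 overlap Bcl2l13 on the opposite strand, itself at 82.6, 91.3 and 97.5 CPM on average.

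**Figure D2:**
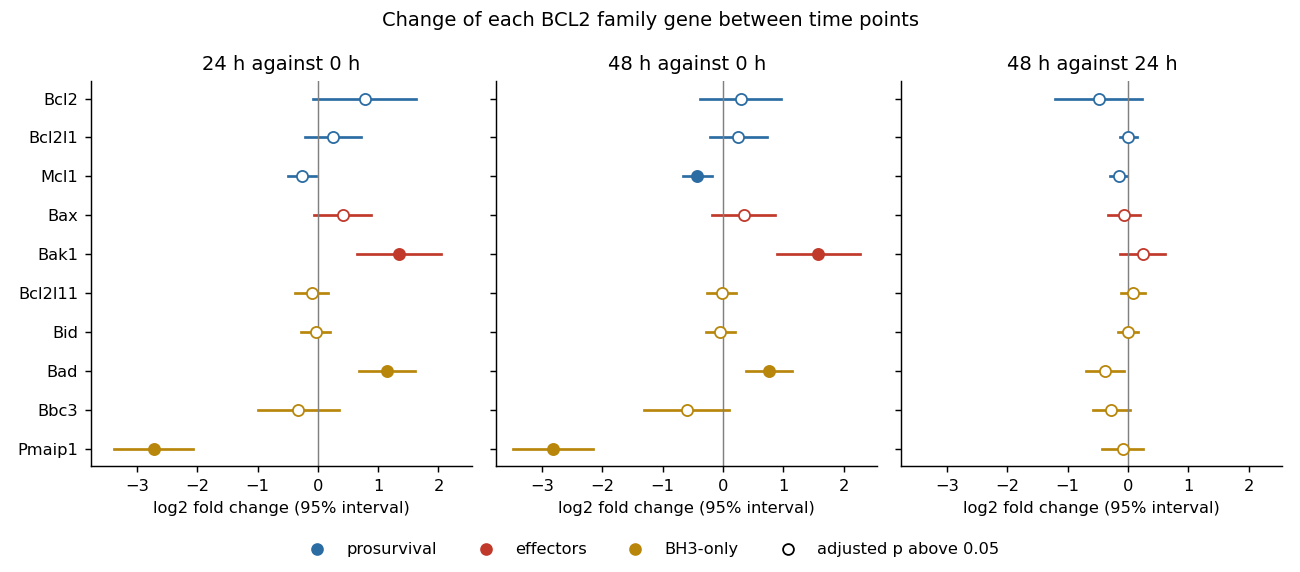
Log2 fold change of each member (horizontal axis) in the 3 comparisons, with 95% intervals from the edgeR fits and 3 libraries per group. Filled points passed an adjusted p of 0.05; Pmaip1 lies at -2.72 and -2.82 against 0 h, Bak1 at 1.34 and 1.58, and no point is filled at 48 h against 24 h.

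All 10 members passed the expression filter in each comparison. At 24 h against 0 h, 3 of 10 were called, Bak1 and Bad higher and Pmaip1 lower, where 25.5% of the 17592 genes tested were called. In each direction this was 2 higher and 1 lower of 10, against 11.4% and 14.2% of all genes. At 48 h against 0 h, 4 of 10 were called, the same 3 and Mcl1 lower, where 31.6% of 17755 genes were called, 13.0% higher and 18.5% lower. The share of members called was thus near that of all genes. The comparisons share the 0 h libraries, so that their calls are not independent. At 48 h against 24 h, 0 of 10 were called by edgeR and 0 by DESeq2, with 2 (Bad and Mcl1) at an unadjusted p under 0.05, where edgeR called 21.3% of 17499 genes, 8.61% higher, 12.7% lower and 2.97% with at least a 2-fold change. The libraries of the groups did not overlap for 4 members in each comparison, against 43.1%, 47.7% and 38.5% of all genes. A change of at least 2-fold that passed the test was seen for 3 members at 24 h, against 13.2% of all genes, and for 2 members at 48 h, against 16.7%. The median log2 fold change of the 10 members was 0.11, 0.12 and -0.08 in the 3 comparisons, and that of all genes 0.01, 0.02 and -0.00. With library size in place of TMM, the median of all genes shifted by 0.11 in both comparisons with 0 h, and of the genes called, the share that was higher went from 44.5% to 57.1% at 24 h and from 41.2% to 52.8% at 48 h.

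Levels of different genes were compared per length, as FPKM (here CPM per kilobase of exon) with TMM scaling and the union of a gene's exons. At 0 h the order was Bax (74.0 ± 21.4), Mcl1 (44.7 ± 3.39), Bid (17.4 ± 0.681), Bcl2l1 (15.6 ± 4.39), Pmaip1 (15.1 ± 5.02), Bcl2l11 (5.19 ± 0.0616), Bbc3 (4.46 ± 1.71), Bad (2.39 ± 0.357), Bak1 (0.618 ± 0.202) and Bcl2 (0.115 ± 0.0239), in FPKM (SD, n = 3). The libraries of Bid, Bcl2l1 and Pmaip1 overlapped in that order, as did those of Bcl2l11, Bbc3 and Bad. At 48 h the order was Bax (93.2 ± 17.2), Mcl1 (33.2 ± 2.41), Bcl2l1 (18.6 ± 1.04), Bid (16.9 ± 1.25), Bcl2l11 (5.10 ± 0.294), Bad (4.04 ± 0.173), Bbc3 (2.93 ± 0.346), Pmaip1 (2.14 ± 0.196), Bak1 (1.84 ± 0.164) and Bcl2 (0.141 ± 0.0105). Only Bcl2l1 and Bid, and Pmaip1 and Bak1, then overlapped with their neighbour. The order at 24 h was that of 48 h with Bad (5.31 ± 1.00) and Bcl2l11 (4.84 ± 0.493) exchanged, and these 2 overlapped. Bax and Mcl1 thus led at all times, Bak1 and Bcl2 came last, and Pmaip1 went from rank 5 to rank 8.

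**Figure D3:**
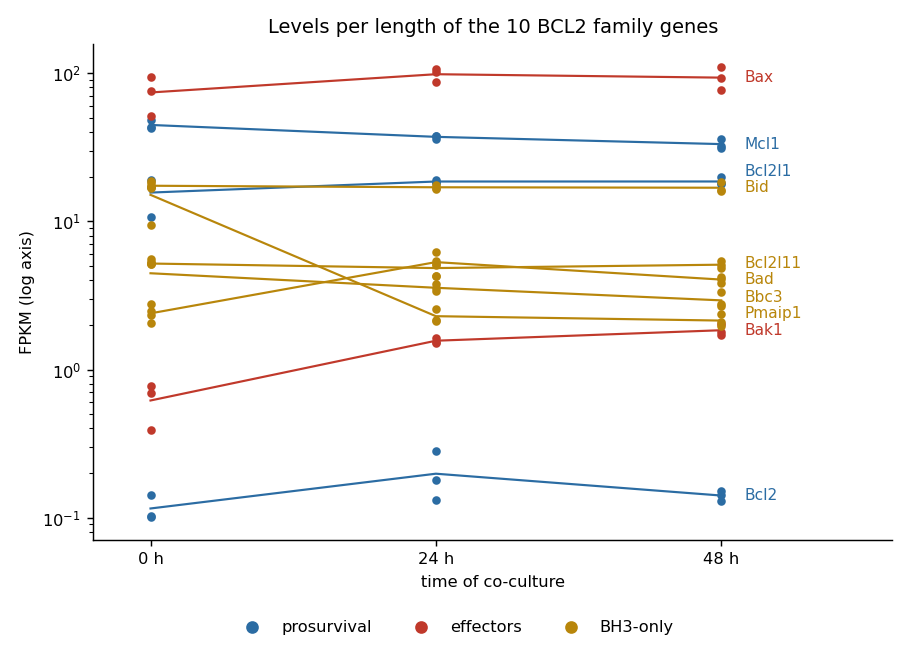
FPKM of the 10 genes on a log axis at 0 h, 24 h and 48 h, with points for libraries and lines through the means of 3 libraries. Pmaip1 crosses Bcl2l11, Bbc3 and Bad on its way from 15.1 to 2.29 FPKM, and Bcl2 stays at 0.101 to 0.282 FPKM.

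The fall of Pmaip1 changed the make-up of the BH3-only transcripts. It gave 41.1%, 35.3% and 23.8% of their summed FPKM in the 0 h libraries, 6.40%, 7.83% and 6.62% at 24 h and 6.98%, 7.02% and 6.64% at 48 h. Bid gave 39.2% ± 2.92, 51.5% ± 2.18 and 54.2% ± 0.367 at the 3 times, and Bad 5.46% ± 1.37, 16.1% ± 2.89 and 13.0% ± 0.614 (SD, n = 3). Mcl1 FPKM per Pmaip1 FPKM was 2.26, 2.52 and 5.18 at 0 h, 16.8, 14.6 and 17.6 at 24 h and 15.0, 15.2 and 16.4 at 48 h. The 0 h libraries were apart from all later ones in this ratio, and the later groups overlapped. Bax FPKM per Bcl2l1 FPKM stayed at 4.74 ± 0.254, 5.29 ± 0.406 and 5.00 ± 0.697, with overlapping libraries, and Bax per Bak1 was 131 ± 60.4, 62.8 ± 4.23 and 50.7 ± 9.46. The 3 prosurvival genes made up 33.8% ± 1.33 of the summed FPKM of the 10 genes at 0 h, 29.7% ± 1.54 at 24 h and 29.3% ± 2.31 at 48 h. These shares and ratios are built from the values tested above and were not tested again.

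**Figure D4:**
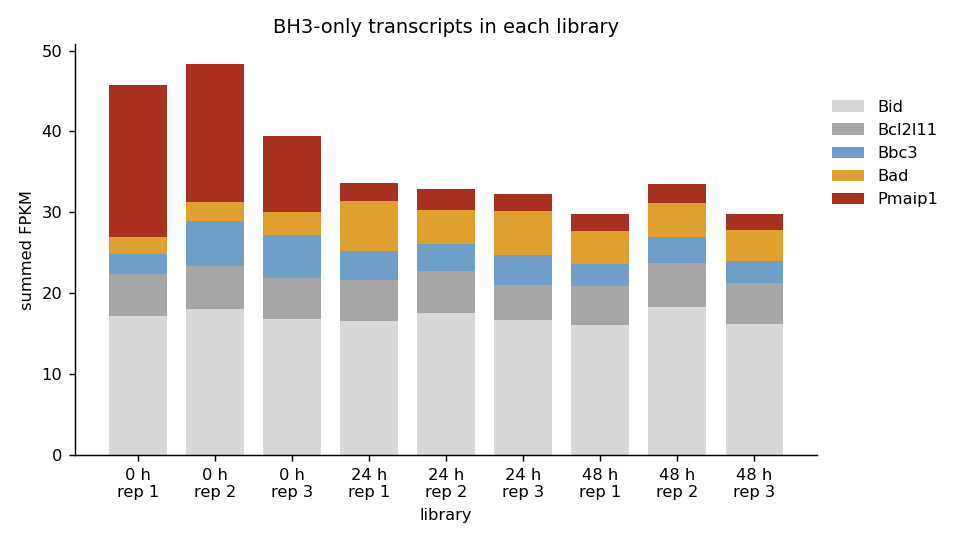
Summed FPKM (vertical axis, from 0) of the 5 BH3-only genes in each of the 9 libraries, stacked by gene. Pmaip1 forms 23.8% to 41.1% of the bar at 0 h and 6.40% to 7.83% later, while the Bid segment stays at 16.1 to 18.3 FPKM.

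For the 3 members that were called with at least a 2-fold change, the genes with the most similar course were read off as the highest Pearson r of log2 CPM over the 9 libraries, among 10358 genes with a mean of at least 10 CPM. For Pmaip1 these were Spred1 (r = 0.996, mean 201, 58.9 and 53.2 CPM at the 3 times), Lemd3 (0.996) and Nin (0.996). For Bak1 they were Saa3 (0.987, 9.82, 30.8 and 33.9 CPM), Cpe (0.980) and Tmem19 (0.979), and for Bad they were Ccdc71l (0.986, 27.6, 43.8 and 39.0 CPM), Wars (0.980) and Eipr1 (0.979). The 9 points share the 3 times and their scaling, so these r values are descriptions.

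Around the 10 members, 5 lists of genes were read out of the same fits. The other BCL2 family genes numbered 15, of which 10 were tested. At 24 h, 2 were higher and 1 was lower than at 0 h, with a median log2 fold change of 0.26. Bcl2l2, which gives the prosurvival protein BCL-W, rose from 12.6 ± 3.18 to 20.99 ± 1.17 CPM (log2 fold change 0.74, adjusted p = 0.0270, edgeR), and Bnip3 rose by 0.59 (0.0197). Bok, a BAX-like member, fell by 0.71 on the log2 scale (adjusted p = 0.0412, edgeR). The calls of Bcl2l2, Bnip3 and Bok at 24 h were kept in 10, 9 and 6 of 14 alternatives, over which 0 to 3 were higher and 0 to 2 lower. At 48 h, 3 were lower than at 0 h (Bok -0.94, Bnip3l -0.47, Bmf -0.58) and 0 higher by edgeR and by DESeq2, with 2 higher at an unadjusted p under 0.05. The counts over the 14 alternatives were 0 to 2 higher and 0 to 4 lower. Bmf, a BH3-only gene, fell mostly after 24 h, by 0.48 on the log2 scale (43.8 ± 0.703 to 31.2 ± 4.61 CPM, adjusted p = 0.00799, edgeR). Bcl2a1a, Bcl2a1b, Bcl2a1d and Bcl2l15 were at 3 counts or fewer in every library.

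Downstream of the mitochondria, 20 genes were tested, of which 5 were called at 24 h (3 higher, 2 lower) and 6 at 48 h (3 higher, 3 lower), against 0 h. Casp9, the initiator caspase of the apoptosome, fell at 48 h, by 0.67 on the log2 scale against 0 h and by 0.50 against 24 h (adjusted p = 0.00249 and 0.00186, edgeR), in all 14 alternatives. Vdac1, a channel of the outer mitochondrial membrane, fell by 0.81 and 1.17 (adjusted p = 0.00450 and 0.000193, edgeR). From 24 h to 48 h, 6 of the 20 were lower by edgeR and 5 by DESeq2, and 0 were higher by either, with 2 higher at an unadjusted p under 0.05. Over the 14 alternatives, 1 to 6 were lower, and the call was kept in 14 for Casp9, 13 for Htra2, 9 for Endog, 6 for Vdac1, 5 for Diablo and 2 for Aifm1. Htra2 had a log2 fold change of -0.72 (adjusted p = 0.00534, edgeR), and with Endog, Diablo and Aifm1 it encodes proteins that mitochondria release or that act with them in cell death. The median of the list was -0.02, -0.14 and -0.12 in the 3 comparisons.

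Of 9 death receptor genes tested, the same 3 were higher at 24 h and at 48 h against 0 h (Fas, Ripk1, Casp8) and the same 3 lower (Cflar, Tnfrsf1a, Tnfrsf10b). Fas, the receptor itself, was at 0.676, 0.593 and 0.503 CPM at 0 h, at 1.66, 1.76 and 1.76 CPM at 24 h and at 3.54, 2.91 and 2.85 CPM at 48 h (log2 fold changes 1.54 and 2.39, adjusted p = 0.00807 and 0.000682, edgeR). Its level rose again between 24 h and 48 h (0.85, adjusted p = 0.0208, edgeR). Ripk1, a kinase of these receptor complexes, rose from 2.87 ± 0.524 to 8.15 ± 0.748 and 11.02 ± 1.99 CPM (adjusted p = 0.00193 and 0.000781, edgeR). Casp8, which cuts BID, rose from 2.68 ± 0.399 to 5.96 ± 1.07 and 4.84 ± 0.336 CPM (adjusted p = 0.0105 and 0.0190, edgeR). Cflar, which gives the caspase-8 inhibitor FLIP, fell from 21.4 ± 3.68 to 11.8 ± 0.853 and 11.9 ± 1.32 CPM (adjusted p = 0.00957 and 0.0105, edgeR). The calls of Fas, Ripk1 and Tnfrsf1a against 0 h were kept in all 14 alternatives. At 24 h and 48 h, those of Casp8 were kept in 11 and 10, of Cflar in 13 and 14 and of Tnfrsf10b in 11 and 11. The rise of Fas from 24 h to 48 h was called in 9 of 14. Fas, Ripk1 and Casp8 were low at 0 h and rose beside the stromal and myoid sums, whose part in this was not tested, and the ligand gene Fasl was at 3 counts or fewer in every library.

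Of 26 genes of the p53 pathway outside the family, Trp53 included, 3 were higher and 7 lower at 24 h against 0 h. At 48 h, 5 were higher and 5 lower. Over the 14 alternatives these counts were 0 to 5 higher and 4 to 9 lower at 24 h, and 0 to 7 and 4 to 7 at 48 h. The 5 lower at both times were Btg2, Trp53 itself (140 ± 11.6 to 94.8 ± 6.90 and 106 ± 6.13 CPM, log2 fold changes -0.56 and -0.40, adjusted p = 0.00864 and 0.0223, edgeR), Zmat3 (-1.49 and -1.23), Cdkn1a (-1.20 and -1.12) and Sesn1 (-0.94 and -0.72). Zmat3, an RNA-binding protein, was at 46.2, 43.7 and 38.4 CPM at 0 h, at 14.6, 16.6 and 14.5 CPM at 24 h and at 17.01, 17.5 and 20.2 CPM at 48 h, with no overlap between 0 h and the later libraries. Cdkn1a, the inhibitor of cyclin-dependent kinases p21, was at 65.5, 91.5 and 110 CPM at 0 h and at 37.2 to 44.4 CPM in the 6 later libraries. Zmat3, Cdkn1a and Sesn1 were called lower in all 14 alternatives at both times. The call of Trp53 was kept in 14 at 24 h and in 7 at 48 h, and that of Btg2 in 8 and 14. Gdf15 and Pml were higher at both times. The calls of Gdf15, which was at only 0.297 to 0.604 CPM at 0 h, were kept in 7 and 12 of 13 alternatives. Those of Pml were kept in 9 and 7 of 14. Mdm2, the ligase that degrades p53, fell by 0.48 at 24 h on the log2 scale (adjusted p = 0.0381, edgeR), a call kept in 7 of 14 alternatives. At 48 h against 0 h, Mdm2 was at -0.31 and did not pass the test (adjusted p = 0.130, edgeR). The other p53 targets in the family, Bax and Bbc3, did not pass the test, and the median of the list was -0.05 at 24 h and 0.04 at 48 h.

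The last list held 26 genes that act on the transcription or stability of BCL2 family proteins, of which 2 were higher than at 0 h at both times, 4 were lower at 24 h and 5 were lower at 48 h. Both higher genes were kinases that phosphorylate BAD. Pim1 was at 78.1, 110 and 134 CPM at 0 h, at 298, 291 and 299 CPM at 24 h and at 218, 262 and 198 CPM at 48 h (log2 fold changes 1.47 and 1.08, adjusted p = 0.00115 and 0.00589, edgeR). Akt1 rose from 92.9 ± 20.5 to 178 ± 6.60 and 160 ± 10.6 CPM (0.94 and 0.79, adjusted p = 0.00396 and 0.00816, edgeR). These calls were kept in all 14 alternatives. Among the lower genes were E2f1 (-0.73 and -1.17) and Ywhaz, a 14-3-3 protein of the kind that binds phosphorylated BAD (-0.63 and -0.74). Foxo1 and Foxo3, whose proteins drive Bcl2l11, did not pass the test in any of the 3 comparisons, with Foxo1 at 182 ± 18.2, 189 ± 15.0 and 164 ± 8.76 CPM (adjusted p = 0.818 and 0.385 against 0 h, edgeR). From 24 h to 48 h, 10 of the 26 were lower, with Stat3 (-0.69, adjusted p = 0.000187, edgeR), Pim1, Pim2, Pim3, Akt2 and Foxo4 among them, and 2 were higher (Creb1, Mycn). Over the 14 alternatives, 1 to 11 were lower and 1 to 3 higher. With all 9 libraries in 1 fit, the calls over the 5 lists together at this comparison went from 27 to 3.

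**Figure D5:**
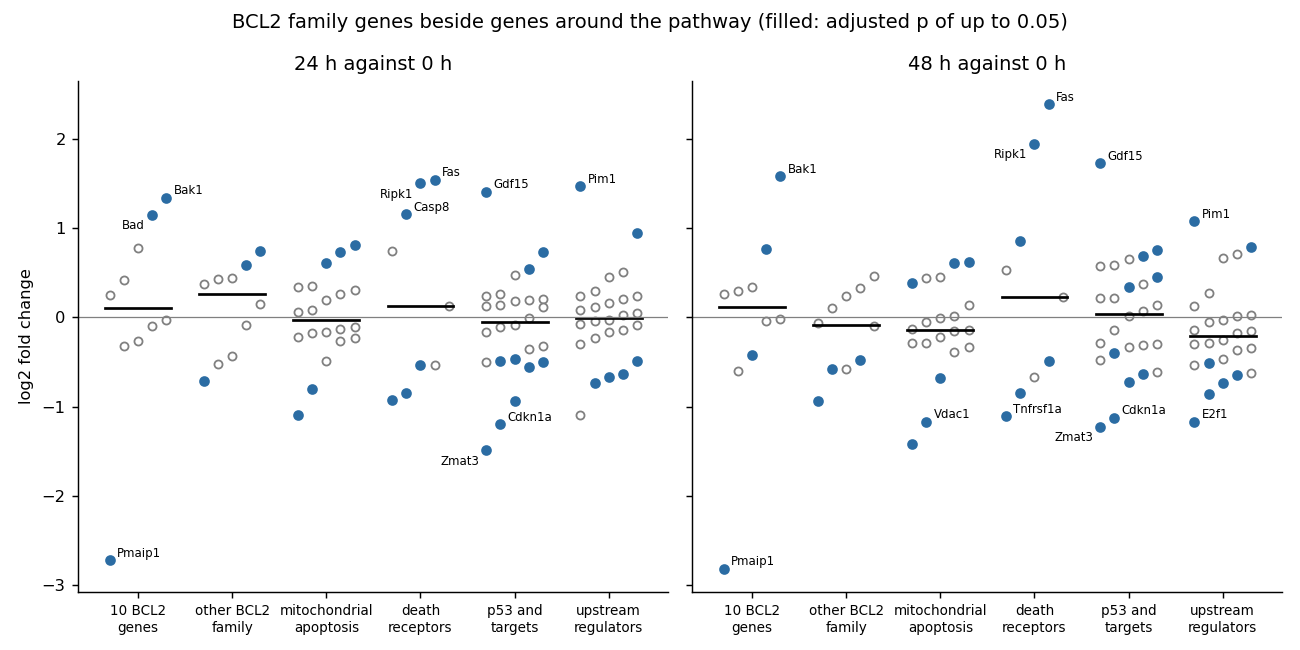
Log2 fold change (vertical axis) at 24 h and 48 h against 0 h for the 10 members and for the tested genes of 5 lists around them, each point a gene and each bar the median. Filled points passed an adjusted p of 0.05 (edgeR), names are given to most of those of at least 2-fold, and Pmaip1 lies lowest of all genes shown.

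Of the 91 genes tested in these 5 lists, 30 were called at 24 h (33.0%) and 32 at 48 h (35.2%) against 0 h, beside 25.5% and 31.6% of all genes. Between 24 h and 48 h it was 27 (29.7%), 6 higher and 21 lower, beside 21.3% of all genes.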

How the data were processed

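Poly-A RNA of 9 libraries was measured, with 3 libraries in each of 3 groups set by the time in the sample titles. The authors deposited raw counts of reads per Ensembl gene for each library. The submitters' processing notes name fastp, HISAT2, featureCounts and the build GRCm38, and the strand setting of the counting is not given in the sources used here. Of 46078 identifiers, 45229 took a symbol from GENCODE M21 (GRCm38). From the deposited counts, each of the 3 comparisons was fitted over its 6 libraries with edgeR 4.0.16 in R 4.3.3 (filterByExpr, TMM, two-sided quasi-likelihood test, Benjamini-Hochberg adjustment over all genes tested, threshold 0.05). A comparison tested 17499 to 17755 genes. CPM were TMM-scaled over all 9 libraries, log2 CPM used a prior count of 2, and FPKM were CPM per kilobase of exon union. Intervals are at 95% and follow from the fits. A gene at 3 counts or fewer in each library was taken as at the floor.

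The 10 members, the lists of genes and the alternatives were chosen with earlier results of these data known, so that a pattern in them is no independent support. All members are named. List genes are counted, and those called may be named, except some that are not reported here. The alternatives were DESeq2 1.42.0, library size or DESeq2's size factors in place of TMM, a filter of 10 counts in each library or none, a single fit over the 9 libraries, a replicate block, offsets for GC content and gene length, a fold change over 1.3, the longest transcript as gene length, and leaving out each library in turn. Their use on the lists was added after the data were seen. The fits were tested on simulated data. Totals were 16825251 to 22201892 counts per library, and counting error weighs most on genes of few counts such as Bcl2 and Bak1. Promoters were read from RefSeq (GRCm38.p6). Python 3.11.15 and matplotlib 3.10.9 drew the figures.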

Additional observations from a re-analysis of the deposited data

How the results depend on the processing

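Of 420 values of single members under the alternatives, 376 kept their direction and their side of the threshold, 11 gained a call, 8 lost it and 25 changed sign. The calls among the 10 members went from 3 to 5 at 24 h against 0 h with GC and length offsets, and ran from 2 to 4 when 1 library was left out. Those at 48 h against 0 h went from 4 to 6 with the offsets and ran from 2 to 5 when 1 library was left out. Those at 48 h against 24 h went from 0 to 1 without the expression filter and with the offsets, and ran from 0 to 1 when 1 library was left out. Over all genes, leaving out 1 library gave 2607 to 6023 calls at 24 h and 3471 to 7116 at 48 h against 0 h, and 1857 to 4356 at 48 h against 24 h, where all 9 libraries in 1 fit gave 1043. Over the 5 lists around the family, leaving out 1 library gave 14 to 40, 18 to 40 and 13 to 30 calls, the replicate block 17, 20 and 17, and all 9 libraries in 1 fit 3 at 48 h against 24 h. The alternatives for the lists were chosen after the data were seen.

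The sign changes were of log2 fold changes near 0. At 24 h against 0 h, Bcl2l11 was 0.0133 with library size alone, and Bid 0.0792 with library size alone, 0.0109 with at least 10 counts in every library and 0.0272 with the offsets. At 48 h, Bcl2l11 was 0.0884 with library size alone and 0.014 with the offsets, and from -0.0595 to 0.0155 when 1 library was left out, and Bid was 0.069 and 0.0998 with library size alone and the offsets. From 24 h to 48 h, Bid was 0.0111 with DESeq2 size factors, 0.0097 with DESeq2, 0.0195 with at least 10 counts in every library, 0.0059 with all 9 libraries and 0.0754 with the offsets, and Bax 0.174 with the offsets. When 1 library was left out there, Bcl2l1 ran from -0.0241 to 0.0477, Bax from -0.195 to 0.0484, Bid from -0.0506 to 0.039 and Pmaip1 from -0.15 to 0.007. The cause of these changes was not tested.

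The replicate number as a block left 3, 3 and 0 members called, against 3, 4 and 0 without it. It gave Mcl1 an adjusted p of 0.0741 (edgeR) at 48 h against 0 h and changed no other call of a member. The numbers were not taken to pair the samples, since the deviations of same-numbered libraries correlated at only -0.28 to 0.19, and libraries did not all correlate best with their own number. With the longest transcript as gene length, the prosurvival share of the summed FPKM was 30.7% at 0 h and 27.1% at 24 h. This exchanged Bid and Bcl2l1 in the order at 0 h and left the other orders. Bcl2 had 15 to 53 counts per library, the fewest of the members.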
